A study of Mus musculus with 6 samples.

Results

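Genes of glycolysis, glucose and lactate transport and the hypoxia response were read in peritoneal macrophages of Tet2-/- and wild-type mice. The 31 genes were listed by name for their role and matched to the probe sets of the array through the platform's annotation. Of these, 28 were measured, each by 1 probe set, among 25206 probe sets in all. Gapdh, Gpi1 and Eno1 had no probe set named for them in that annotation and were not analysed here.

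Macrophages were drawn from the peritoneal cavity of C57BL/6J mice 4 days after an injection of thioglycollate, a sterile irritant that attracts monocytes which then become macrophages. They came from mice lacking Tet2, an enzyme that oxidises methylated cytosine in DNA and from wild-type littermates; how the gene was removed is not stated. The cells of both groups were plated in ordinary medium, received no cytokine or other treatment, and gave up total RNA 10 h later. Each genotype had 3 arrays, numbered replicates 4, 5 and 6, which the titles call biological; whether animals were pooled is not stated.

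For 4 of the 6 arrays the sample title and the genotype characteristic name opposite genotypes. The title set the groups, and every direction below holds for the arrays titled Tet2-/- or wild-type. Under the characteristic, 16 of the 28 differences changed sign. The Tet2 probe set read 4.35, 3.74 and 3.79 log2 units in wild-type replicates 4, 5 and 6 and 3.8, 4.05 and 3.67 in Tet2-/- replicates 4, 5 and 6, so the groups overlapped (difference -0.12, 95% confidence interval -0.56 to 0.32). Neither the bases of Tet2 that its probes cover nor the part of the gene removed is stated, so that level checks no label. Array medians lay between 2.77 and 2.93. The macrophage markers Adgre1, Cd68, Csf1r, Itgam, Fcgr1, Mertk and Cd14 were measured (Lyz2 was not), and their mean level ran from 8.74 to 9.09 over the wild-type arrays and from 8.49 to 9.26 on the Tet2-/- arrays.

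Glycolysis splits glucose into pyruvate in the cytosol. Macrophages rely on it heavily when they are activated, and they turn much of the pyruvate into lactate. When oxygen is short, prolyl hydroxylases stop marking hypoxia-inducible factor 1 alpha for destruction, and the factor then switches on glucose transporters, glycolytic enzymes and genes that lower the use of oxygen by mitochondria. Hif1a RNA says little about the protein, which is controlled mainly by its stability.

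No gene of the set passed the test between genotypes. By limma, 0 of the 28 had an adjusted p under 0.05, against 0% of the 25206 probe sets, and each of the 28 had an adjusted p of 0.998. At an unadjusted p under 0.05 there were 6 of 28, or 21.4%. All probe sets gave 3.61%, and the 12597 above the median level gave 4.41%. Of the 6 genes, 5 were lower in Tet2-/- (all probe sets 1.9%) and 1 was higher (all probe sets 1.71%). Those 5 were Slc2a1, Hk3, Pgam1, Bnip3 and Bnip3l, and the one higher was Pdk1. At an unadjusted p under 0.01 there were 0. The count of 6 was 3 without wild-type replicate 4, 5 or 6 in turn, when all probe sets gave 3.25%, 2.51% and 2.8%. It was 0 without Tet2-/- replicate 5 (all probe sets 3.19%), 4 without Tet2-/- replicate 4 (3.78%) and 9 without Tet2-/- replicate 6, when the share over all probe sets rose as well, to 9.87%.

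The median difference over the 28 genes was 0.022 log2 units, with 15 higher and 13 lower in Tet2-/-, beside a median of 0 over all probe sets. The 28 therefore had no common direction. The 3 arrays of one genotype lay wholly apart from those of the other for 5 genes, or 17.9%. The share was 7.41% over all probe sets and 7.26% over those above the median level. Slc2a1, Hk3, Bnip3 and Bnip3l lay lower in Tet2-/-, a side that held 4.07% of all probe sets. Adm lay higher, a side that held 3.33%. The count was 12 without Tet2-/- replicate 6, when the share over all probe sets was 25.7%. It was 8 without wild-type replicate 4, wild-type replicate 5 or Tet2-/- replicate 4, with shares of 16.7%, 14% and 15.8% over all probe sets. It was 6 without wild-type replicate 6, beside 14.3%, and 5 without Tet2-/- replicate 5, beside 14.9%.

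**Figure D1:**
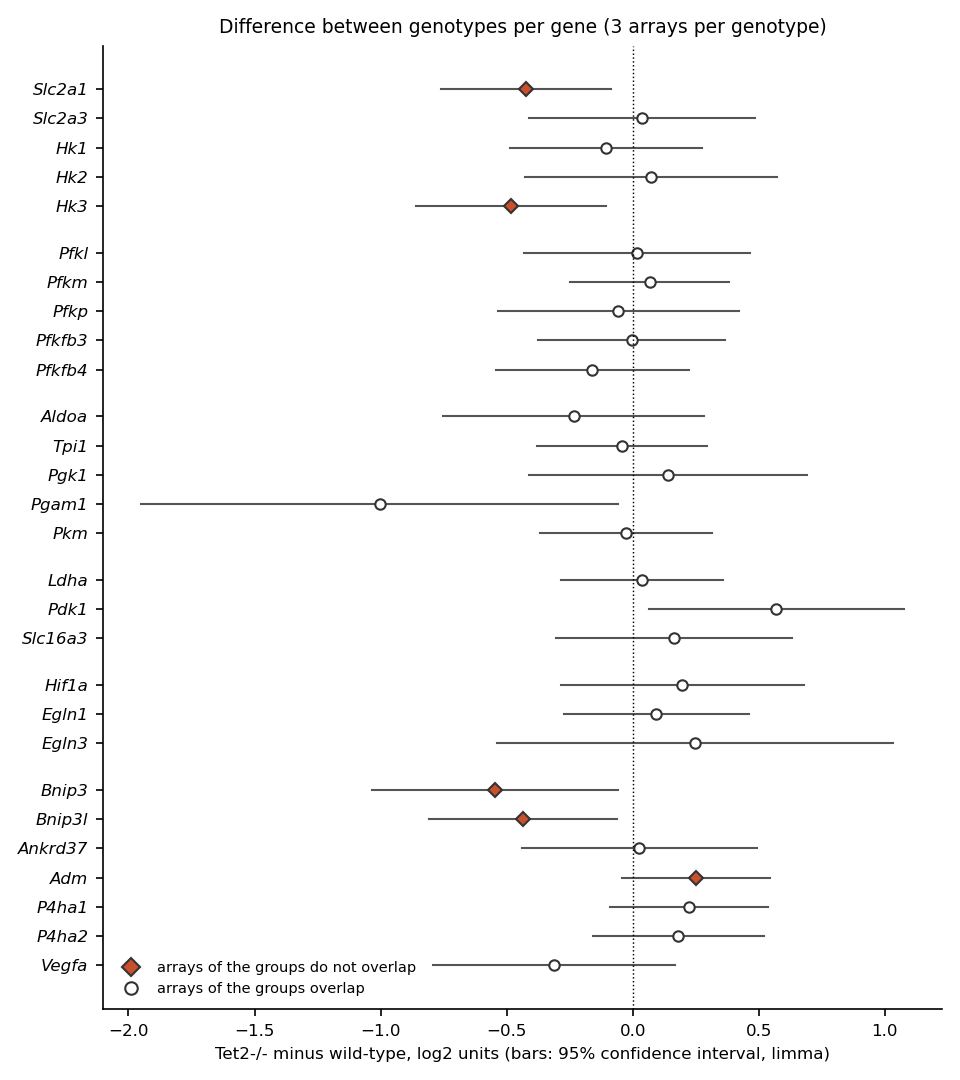
Difference between genotypes for each of the 28 measured genes, in log2 units (x axis), Tet2-/- minus wild-type, with 95% confidence intervals from limma and genes grouped by role. Filled diamonds mark the 5 genes whose arrays do not overlap between genotypes, 4 to the left of 0 and 1 to the right, and Pgam1 has the widest interval, from -1.95 to -0.06.

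The stretches just before the transcription start are shown for 4 of the genes whose arrays lay apart and for Pdk1, the gene with the largest positive difference, whose arrays overlapped. Hypoxia-inducible factors bind a core of ACGTG or GCGTG, which was searched on both strands in the 250 bases before each start site. Matches are in capitals, and the sequences are RefSeq's (build GRCm38.p6), 5′ to 3′ on the strand of the gene. The array values name no build of their own.
Slc2a1, chr4:119108495-119108744, plus strand: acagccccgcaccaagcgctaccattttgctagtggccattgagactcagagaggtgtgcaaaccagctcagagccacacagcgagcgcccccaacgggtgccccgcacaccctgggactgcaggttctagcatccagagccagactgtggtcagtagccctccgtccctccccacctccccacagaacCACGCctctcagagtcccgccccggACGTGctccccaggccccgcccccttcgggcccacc
Bnip3, chr7:138909507-138909756, minus strand: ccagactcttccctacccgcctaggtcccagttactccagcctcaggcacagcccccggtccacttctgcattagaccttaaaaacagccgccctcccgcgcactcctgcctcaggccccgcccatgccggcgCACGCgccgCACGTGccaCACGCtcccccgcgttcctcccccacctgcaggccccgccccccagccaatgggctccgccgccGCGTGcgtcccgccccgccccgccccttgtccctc
Hk3, chr13:55021386-55021635, minus strand: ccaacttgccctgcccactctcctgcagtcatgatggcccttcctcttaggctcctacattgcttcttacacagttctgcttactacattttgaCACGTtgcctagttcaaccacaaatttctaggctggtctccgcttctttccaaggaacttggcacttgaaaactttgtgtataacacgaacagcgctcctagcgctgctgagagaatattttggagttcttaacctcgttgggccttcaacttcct
Pdk1, chr2:71872974-71873223, plus strand: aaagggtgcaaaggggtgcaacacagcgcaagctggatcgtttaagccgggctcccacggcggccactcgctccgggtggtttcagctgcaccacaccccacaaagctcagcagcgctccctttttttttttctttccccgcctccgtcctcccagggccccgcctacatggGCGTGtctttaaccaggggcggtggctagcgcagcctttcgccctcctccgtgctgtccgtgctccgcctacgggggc
Adm, chr7:110627407-110627656, plus strand: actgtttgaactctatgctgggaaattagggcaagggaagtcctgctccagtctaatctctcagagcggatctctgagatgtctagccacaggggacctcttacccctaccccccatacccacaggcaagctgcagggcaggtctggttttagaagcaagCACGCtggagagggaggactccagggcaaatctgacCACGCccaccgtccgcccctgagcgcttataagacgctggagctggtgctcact

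Bnip3 held 5 matches, 2 of them overlapping in the E-box CACGTG, which reads the same on both strands and is also bound by Myc and related factors. Slc2a1 and Adm held 2 matches each, and Hk3 and Pdk1 held 1 each in the windows printed. Another Pdk1 window, chr2:71874654-71874903, is not printed and held 0. Genes that were lower in Tet2-/- and genes that were higher both carried the core. Nearly every gene of the set with a window did, so the core cannot tell the directions apart. Of the 28 measured genes, 26 matched the promoter table (Slc2a3 and Bnip3l did not), and 25 of the 26, or 96.2%, held the core in at least 1 window, Tpi1 being the exception. Over all 27025 genes of that table the share was 41.5%. Windows with many CG pairs hold a core that contains CG more often: the median number of CG pairs was 14 over the 37 windows of the set and 6 over all 32851 windows. Counted by window, the share with a match was 81.1% in the set and 38.6% in the table, and it was 67.3% of the 9646 table windows with 14 or more CG pairs. Those windows had a median of 22 CG pairs, more than the set, so they are not a matched background. A match is a run of letters and not a measured binding site.

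Glucose enters macrophages mainly through the transporter encoded by Slc2a1 (GLUT1). Its log2 level was 8.17, 7.91 and 8.02 on wild-type replicates 4, 5 and 6 and 7.82, 7.57 and 7.44 on Tet2-/- replicates 4, 5 and 6. Every Tet2-/- array lay below every wild-type array. The difference was -0.42 with a standard error of 0.149 (95% confidence interval -0.76 to -0.09, 0.746-fold), and it lay between -0.53 and -0.34 when single arrays were left out. Slc2a3, the high-affinity transporter GLUT3, read 1.51 to 2.26 over the 6 arrays, in the dimmer part of the array's range, and differed by 0.04.

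Hexokinases trap glucose as glucose 6-phosphate. Of the isoforms in the set, only Hk3 had arrays that lay apart between genotypes, and no test between isoforms was run. Hk3, the isoform typical of myeloid cells, read 7.48, 7.51 and 7.2 in wild-type and 6.98, 6.64 and 7.12 in Tet2-/- replicates 4, 5 and 6. The groups did not overlap, although wild-type replicate 6 and Tet2-/- replicate 6 were close. The difference was -0.48 with a standard error of 0.166 (95% confidence interval -0.86 to -0.11, 0.715-fold). It was between -0.59 and -0.35 with single arrays left out. Hk1, the housekeeping isoform bound to mitochondria, read 6.26, 5.86 and 5.90 in wild-type against 5.97, 6.07 and 5.66 in Tet2-/-, a difference of -0.11. Hk2, the inducible isoform and a HIF target, read 6.55, 5.97 and 5.92 against 6.22, 6.55 and 5.89. Its highest values, 6.55, stood once in each genotype, and the difference was 0.07 (95% confidence interval -0.43 to 0.57).

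Phosphofructokinase commits the sugar to glycolysis, and none of its subunit genes stood apart between genotypes. Pfkl, the liver-type subunit, read 6.13, 5.80 and 5.60 in wild-type and 5.90, 6.15 and 5.53 in Tet2-/- (difference 0.02). Pfkp, the platelet-type subunit, read 7.4, 7.01 and 6.98 against 7.26, 7.33 and 6.63 (difference -0.06). In both genes wild-type replicate 4 and Tet2-/- replicates 4 and 5 were the 3 highest arrays. Pfkm, the muscle-type subunit, was dim, at 2.17 to 2.54 over the 6 arrays, and differed by 0.07. Pfkfb3 and Pfkfb4 make and break down fructose 2,6-bisphosphate, the activator of phosphofructokinase. They differed by -0.0033 (95% confidence interval -0.37 to 0.37) and -0.16 (-0.54 to 0.22).

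**Figure D2:**
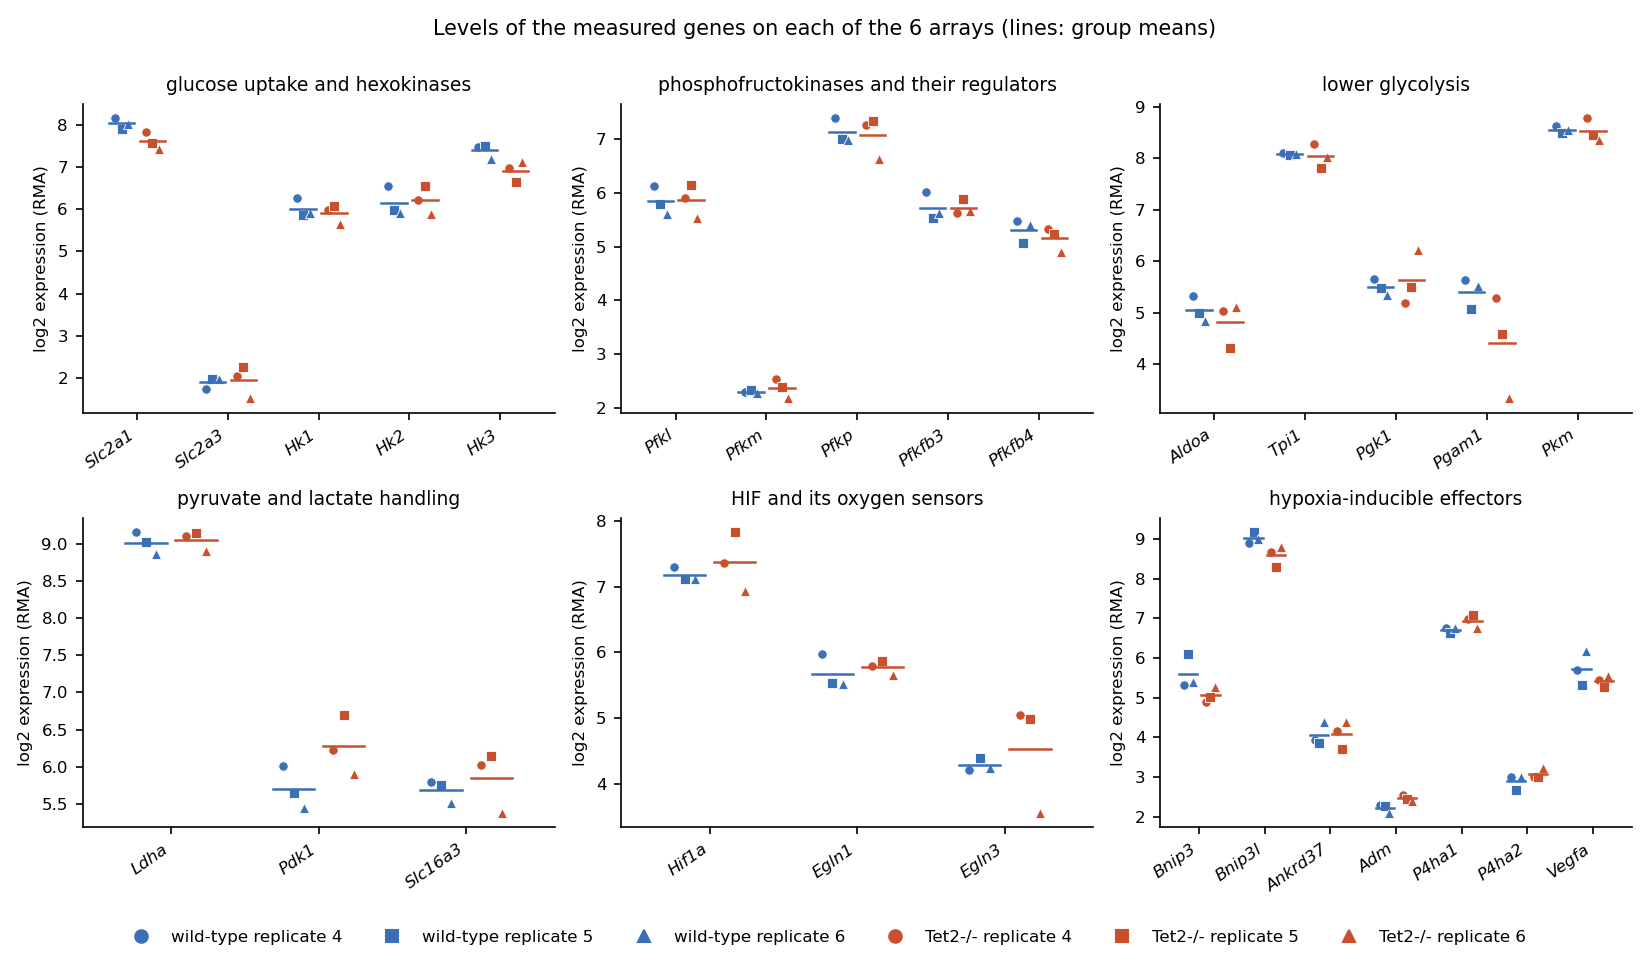
Log2 expression (y axis, RMA) of the 28 measured genes on each array, in panels by role. Blue marks are the 3 wild-type arrays and red marks the 3 Tet2-/- arrays, shaped by replicate number, and short lines are group means. Levels are comparable between arrays for 1 gene, not between genes; Slc2a1 and Bnip3l show red marks wholly below blue ones, and Hk2 and Pfkl show them mixed.

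Among the enzymes that carry triose phosphates to pyruvate, the mutase Pgam1 was the one that stood out. Its level was 5.63, 5.07 and 5.51 on wild-type replicates 4, 5 and 6 and 5.29, 4.58 and 3.33 on Tet2-/- replicates 4, 5 and 6. Tet2-/- replicate 6 was far below the other 5, whereas Tet2-/- replicate 4 lay inside the wild-type range. Wild-type averaged 5.40 ± 0.295 (SD, n = 3) and Tet2-/- averaged 4.40 ± 0.992 (SD, n = 3). They differed by -1.0 (standard error 0.418). Without Tet2-/- replicate 6 the difference was -0.47. Aldoa, which cleaves fructose 1,6-bisphosphate, read 5.32, 4.99 and 4.84 against 5.04, 4.31 and 5.10, so the low array was there Tet2-/- replicate 5 and the difference was -0.23.

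Pgk1, which makes the first ATP of the pathway, was highest on Tet2-/- replicate 6. Pgk1 read 5.66, 5.48 and 5.35 in wild-type against 5.19, 5.50 and 6.22 in Tet2-/-, a difference of 0.14 (95% confidence interval -0.41 to 0.69). Aldoa, Pgk1 and Pgam1 have 2, 3 and 2 named pseudogenes in RefSeq, and it is not stated whether the probes also read such copies. Tpi1, the triose phosphate isomerase, differed by -0.04 (-0.38 to 0.29), and its wild-type arrays lay within 8.06 to 8.11. Pkm, pyruvate kinase, read 8.63, 8.49 and 8.56 against 8.79, 8.46 and 8.35, a difference of -0.03 (-0.37 to 0.31).

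Pyruvate can leave as lactate or enter mitochondria. Ldha, which reduces pyruvate to lactate, read 9.16, 9.02 and 8.86 in wild-type and 9.10, 9.15 and 8.90 in Tet2-/-. The groups lay on top of each other, with a difference of 0.04 (95% confidence interval -0.28 to 0.36). Ldha has 3 named pseudogenes in RefSeq, with the same limit on its probes. Slc16a3, the lactate exporter MCT4, read 5.79, 5.75 and 5.51 against 6.02, 6.14 and 5.38, so Tet2-/- replicates 4 and 5 were above all wild-type arrays and replicate 6 below them (difference 0.16).

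Pdk1, a kinase that shuts pyruvate dehydrogenase and so keeps pyruvate out of mitochondria, had the largest positive difference of the 28. Its level was 6.01, 5.65 and 5.45 on wild-type replicates 4, 5 and 6 and 6.23, 6.69 and 5.90 on Tet2-/- replicates 4, 5 and 6. Tet2-/- replicates 4 and 5 were above every wild-type array, and Tet2-/- replicate 6 fell between wild-type replicates 4 and 5. The difference was 0.57 with a standard error of 0.223 (95% confidence interval 0.06 to 1.08, 1.48-fold). Leaving out Tet2-/- replicate 5 gave 0.36, and leaving out Tet2-/- replicate 6 gave 0.76.

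The gene of the oxygen-regulated factor itself and those of its prolyl hydroxylases overlapped between genotypes. Hif1a read 7.30, 7.12 and 7.12 in wild-type and 7.36, 7.83 and 6.94 in Tet2-/- (difference 0.20, 95% confidence interval -0.29 to 0.68). Tet2-/- replicate 5 was the highest array and Tet2-/- replicate 6 the lowest. Egln1 (PHD2), the main hydroxylase that marks HIF, differed by 0.09 (-0.27 to 0.46). Egln3 (PHD3), a hydroxylase that HIF itself induces, read 4.21, 4.39 and 4.24 against 5.04, 4.98 and 3.56. Here the wild-type arrays were close together and the Tet2-/- arrays lay on both sides of them, at an SD of 0.0964 against 0.838 (n = 3 each). The difference of 0.25 became 0.73 when Tet2-/- replicate 6 was left out and -0.01 when Tet2-/- replicate 4 was.

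Both mitophagy receptors of the set lay lower on every Tet2-/- array. Bnip3 and Bnip3l (NIX) sit in the outer mitochondrial membrane, are induced by HIF and bring mitochondria to autophagosomes. Bnip3 read 5.33, 6.10 and 5.40 on wild-type replicates 4, 5 and 6 and 4.90, 5.03 and 5.26 on Tet2-/- replicates 4, 5 and 6. The gap between the groups was narrow, from 5.26 to 5.33, and wild-type replicate 5 stood high. The difference was -0.55 with a standard error of 0.215 (95% confidence interval -1.03 to -0.06, 0.685-fold), and -0.30 without wild-type replicate 5.

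Bnip3l read 8.90, 9.18 and 9.0 in wild-type and 8.68, 8.30 and 8.79 in Tet2-/-. Its arrays did not overlap either, and Tet2-/- replicate 5 was lowest. The difference was -0.44 with a standard error of 0.164 (95% confidence interval -0.81 to -0.06, 0.739-fold), and -0.29 without Tet2-/- replicate 5. Bnip3l has 1 named pseudogene in RefSeq.

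The remaining hypoxia-inducible genes were mixed. P4ha1, a collagen prolyl hydroxylase subunit, read 6.75, 6.64 and 6.77 against 6.98, 7.09 and 6.76, so Tet2-/- replicate 6 lay just under the highest wild-type array, and it differed by 0.22 (95% confidence interval -0.09 to 0.54). Its relative P4ha2 differed by 0.18, with values from 2.68 to 3.24. Adm, the vasodilator peptide adrenomedullin, read 2.30, 2.26 and 2.10 against 2.56, 2.45 and 2.40, a difference of 0.25 (95% confidence interval -0.04 to 0.54). Adm lay below the median level of all probe sets, as did Slc2a3 and Pfkm, where RMA values are compressed.

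Vegfa, the growth factor that draws in blood vessels, read 5.69, 5.33 and 6.19 against 5.46, 5.27 and 5.54. Wild-type replicate 5 lay within the Tet2-/- range and the other two wild-type arrays above it, and the difference was -0.31 (95% confidence interval -0.79 to 0.17). Ankrd37, an ankyrin repeat gene induced in hypoxia, differed by 0.03, and its highest value, 4.38, was read once in each genotype. HIF targets thus stood on both sides of 0, with Slc2a1, Bnip3 and Bnip3l lower and Pdk1 higher, and none passed the test.

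**Figure D3:**
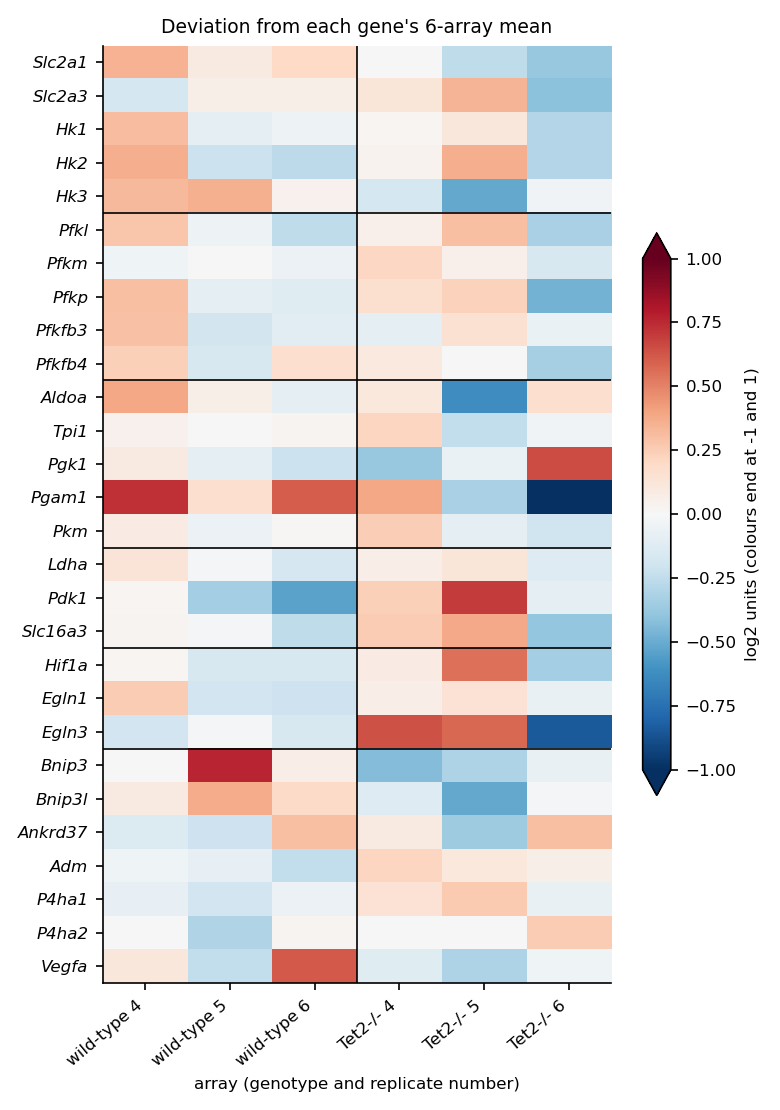
Deviation of each array from the gene's 6-array mean, in log2 units (colour, red above and blue below), for the 28 measured genes in rows and the arrays in columns, with lines between roles and between genotypes. Wild-type replicate 4 is reddest in the upper rows and Tet2-/- replicate 6 is mostly blue, while Bnip3l and Hk3 are red across wild-type.

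Much of the variation ran between arrays of the same genotype. Wild-type replicate 4 was the highest of the 6 arrays for 10 of the 28 genes, Hk2 among them in a tie with Tet2-/- replicate 5, and the lowest for 0. Tet2-/- replicate 6 was the lowest for 13 and the highest for 2, Pgk1 and P4ha2 (for Ankrd37 it tied with wild-type replicate 6). Of the 12597 probe sets above the median level, Tet2-/- replicate 6 was lowest for 4141 and highest for 2584. Wild-type replicate 4 was highest there for 1603 and lowest for 1433 (ties went to the earlier array). Of all 25206 probe sets, Tet2-/- replicate 6 was lowest for 5171 and highest for 7438. The quartile range of its values was 2.99, against 3.16 to 3.33 on the other arrays, and its limma array weight was the lowest, 0.297. The same 3 arrays, wild-type replicate 4 and Tet2-/- replicates 4 and 5, held the 3 highest values of Hk1, Hk2, Pfkl, Pfkp, Ldha, Pdk1, Slc16a3, Hif1a and Egln1. These 9 genes are 32.1% of the set. That order was picked out after the values were seen, and it held for 10.2% of all probe sets and 18.7% of the brighter probe sets (those above the median level). It held for 4 of the 7 macrophage markers, Adgre1, Csf1r, Itgam and Cd14.

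Markers of other peritoneal cells also differed between arrays. The 7 measured genes of resident large peritoneal macrophages, all higher in Tet2-/- by their means, had mean levels of 5.23, 4.73 and 4.76 on wild-type replicates 4, 5 and 6 and 6.16, 6.43 and 4.85 on Tet2-/- replicates 4, 5 and 6. The 7 measured B-cell genes had mean levels of 2.77 to 2.98 in wild-type and of 3.81, 4.62 and 2.90 in Tet2-/-. In both lists Tet2-/- replicates 4 and 5 were high and Tet2-/- replicate 6 was near wild-type. Tet2-/- replicates 4 and 5 were also the 2 highest arrays for 8 of the 28 genes, or 28.6%, which were Slc2a3, Pfkm, Pdk1, Slc16a3, Hif1a, Egln3, Adm and P4ha1. Over all probe sets that share was 8.81%. This pair of arrays, too, was picked out after the values were seen. The share was not counted over the probe sets above the median level, where most of the 28 genes lie. The part of these cells in those levels was not tested. Mean levels of neutrophil markers ran from 2.48 to 2.64 in wild-type and from 2.51 to 2.89 in Tet2-/-, those of T-cell markers from 2.0 to 2.19 and from 2.04 to 2.23, those of eosinophil markers from 2.41 to 2.44 and from 2.08 to 2.37, and those of mast cell markers from 2.18 to 2.21 and from 2.19 to 2.31. The arrays did not overlap for 1 of the 9 neutrophil genes and 2 of the 6 mast cell genes, or 11.1% and 33.3% beside 7.41% of all probe sets. They were Mpo (difference 0.46), Mcpt4 (0.21) and Tpsb2 (0.30), all higher in Tet2-/-. S100a8 read 5.79 to 7.19 and was highest on Tet2-/- replicate 6. Mean levels of mesothelial cell and fibroblast markers ran from 3.93 to 4.43 in wild-type and from 4.135 to 4.35 in Tet2-/-. Among these, Col1a1 read 6.44 to 7.39 and Col3a1 5.02 to 6.05 over the 6 arrays, each highest on wild-type replicate 6. Siglecf, a receptor of eosinophils that some macrophages also carry, had the largest difference of the eosinophil markers. It read 5.37, 5.58 and 5.02 in wild-type and 4.65, 3.58 and 4.12 in Tet2-/- (difference -1.21, 95% confidence interval -1.80 to -0.61). Prg2, Epx and Ccr3 differed by -0.01, 0.03 and -0.07. The dim Il5ra went the other way, also without overlap, at 1.58, 1.44 and 1.68 against 1.77, 2.02 and 1.73 (difference 0.27). Siglecf was thus lower on every Tet2-/- array, as were Slc2a1, Hk3, Bnip3 and Bnip3l, and the part of cell composition in those levels was not tested. In bulk RNA, a change in the share of a cell type and a change in RNA per cell cannot be told apart.

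Further genes of the same pathways were read from lists of 98 genes, of which 91 were measured. By limma 0 of the 91 passed, and 4 had an unadjusted p under 0.05, or 4.4%, close to the 3.61% of all probe sets. The arrays of the groups did not overlap for 7, or 7.69%, close to the 7.41% of all probe sets. Of these, 6 were lower and 1 was higher in Tet2-/-, sides that held 4.07% and 3.33% of all probe sets. The median difference was 0.0033, with 46 higher and 43 lower.

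Of 29 measured further hypoxia-inducible genes, 12 were higher and 17 lower, with a median difference of -0.08. The arrays did not overlap for 4 of the 29, or 13.8% beside 7.41% of all probe sets. All 4 (Tfrc, Mxi1, Ak4 and Pgf) were lower in Tet2-/-, a side that held 4.07% of all probe sets. Ak4 differed by -0.24 (95% confidence interval -0.54 to 0.07) and the dim Pgf by -0.10 (-0.38 to 0.17). By limma, 2 of the 29 had an unadjusted p under 0.05, or 6.9% beside 3.61% of all probe sets. Tfrc, the transferrin receptor that brings in iron, read 6.61, 6.62 and 6.86 in wild-type and 5.83, 5.91 and 6.48 in Tet2-/-, with no overlap (difference -0.62, 95% confidence interval -1.05 to -0.19). Mxi1, a Myc antagonist, read 6.49, 6.30 and 6.23 against 6.19, 5.69 and 5.58, again without overlap (difference -0.52, -0.93 to -0.11). Ddit4 (REDD1), an inhibitor of mTOR signalling, differed by 0.31, and Hmox1, the haem-degrading oxygenase, by -0.11. None of these passed over all probe sets.

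Of 17 further glycolytic isoenzymes and regulators, 10 were higher and 6 lower, and the dim hexokinase-like gene Hkdc1 was higher on every Tet2-/- array (difference 0.33). Tigar, a phosphatase that opposes glycolysis, differed by -0.26, and Ldhb, the lactate dehydrogenase chain that favours pyruvate, by 0.35. Of 14 transporters, 9 were higher and 5 lower. Emb (embigin), a chaperone of monocarboxylate transporters, was lower on every Tet2-/- array, at 7.77, 8.09 and 7.67 in wild-type against 7.58, 7.29 and 7.54 in Tet2-/- (difference -0.37). Bsg (basigin), which serves MCT4 in that way, differed by -0.10. The lysosomal hexose transporter gene Slc2a6 differed by 0.58 (95% confidence interval -0.11 to 1.27), and Slc2a10 by 0.25.

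For the entry of pyruvate into mitochondria, 4 of 10 genes were higher and 5 lower. Pdhb, a subunit of pyruvate dehydrogenase, was lower on every Tet2-/- array (difference -0.23, 95% confidence interval -0.51 to 0.05). Pdk2, a relative of Pdk1, differed by 0.36, the phosphatase Pdp1 that reverses these kinases by -0.22, and Dld by -0.07. Of 14 HIF subunits and regulators, 6 were higher and 8 lower, and the differences lay between -0.20 and 0.14. Vhl, which carries hydroxylated HIF to degradation, differed by 0.12, the hydroxylase Egln2 by 0.14 and the Vhl partner Elob by -0.20. The 7 genes of the pentose phosphate pathway, which branches off at glucose 6-phosphate to make NADPH, differed by -0.08 to 0.16, with Pgd at -0.08, Taldo1 at 0.06 and Rpia at 0.16.

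**Figure D4:**
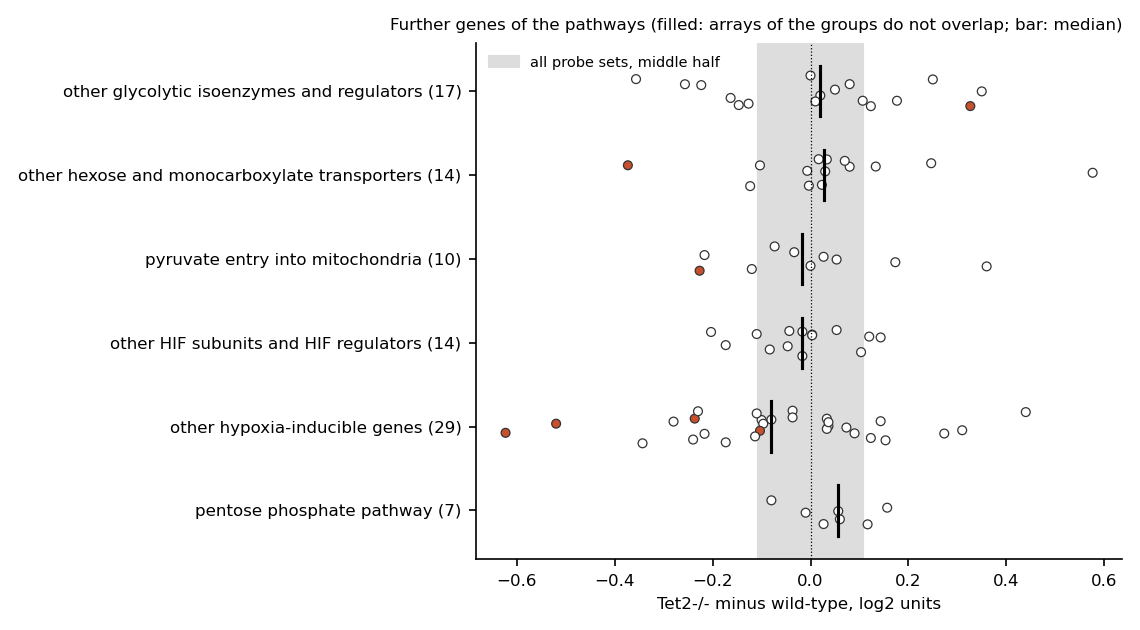
Differences between genotypes in log2 units (x axis) for the 91 further genes, in rows by list with the number measured in brackets. Black bars are list medians, filled points are the 7 genes whose arrays do not overlap, and the grey band holds the quartile range of all probe sets, from -0.11 to 0.11. Every list median lies inside the band, and Tfrc and Mxi1 lie farthest to the left.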

How the data were processed

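The values the authors deposited are log2 expression levels, 1 per probe set. The submitters' processing notes name RMA and affy 1.36.1. The range of the values gave the log2 scale, and whether the 6 arrays were normalized together is not given in the sources used here. Scanner files were not used here, so signal over background was not checked. GEO's platform annotation named 23185 probe sets by 1 gene each and left 2021 unnamed; symbols were looked up in RefSeq (GRCm38.p6) by gene identifier. Groups came from the sample titles. Tests were run with limma 3.58.1 in R 4.3.3 (lmFit, eBayes, two-sided, no covariate) over all 25206 probe sets, with Benjamini-Hochberg adjustment at 0.05; confidence intervals are at 95%. The fit was tested on simulated data. Those were independent normal values without array effects, with added changes larger than nearly all differences reported here, so that test does not cover effects of such size. The genes, the lists and the groups by role were chosen with earlier results of these data known. All measured genes of the set are named; of each further list, the 3 with the smallest p and the 1 with the highest mean are, beside marker lists. The number of arrays, 3 per genotype, limits precision. Alternatives were the grouping by characteristic, a block for replicate number, array weights, robust variances with an intensity trend, other scalings, probe sets above the median level, a stricter p and leaving out each array.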

Additional observations from a re-analysis of the deposited data

How the results depend on the processing

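No gene of the set passed an adjusted p of 0.05 under any setting run. Over all probe sets, 2 passed with array weights, and 0 to 19 with single arrays left out (19 without Tet2-/- replicate 6). The 6 genes at an unadjusted p under 0.05 were 0 when arrays were grouped by the genotype characteristic (all probe sets 1.64%), 0 at a threshold of 0.01, and 0 to 9 with single arrays left out (all probe sets 2.51% to 9.87%, and 3.61% with every array). The 5 genes without overlap were 1 under the characteristic (all probe sets 5.48%) and 5 to 12 with single arrays left out (all probe sets 14% to 25.7%, and 7.41% with every array). Under the characteristic the sign changed for 16 of 28 genes. Among those named with an unadjusted p under 0.05, Slc2a1 was then at 0.023 and Pgam1 at 0.303. Pdk1 was at -0.117, Bnip3 at 0.347 and Bnip3l at 0.037. Of further and marker genes named at that p, Hkdc1 changed to -0.060, Emb to 0.053 and Tfrc to 0.157. Siglecf went from -1.21 to 0.013 and Mpo from 0.46 to -0.033. The characteristic puts 4 of the 6 arrays in the opposite genotype, and which label is right was not tested. Array weights changed the sign of 5 genes, all with a difference of at most 0.14, and put Pgam1 at -0.575. With them 8 genes had an unadjusted p under 0.05 (all probe sets 8.28%). Median centring and quantile normalization changed 1 sign each (Pfkl and Pkm). Median centring left 4 genes at that p (all probe sets 3.67%) and 4 without overlap (8.68%). Quantile normalization left 6 (3.98%) and 4 (8.89%). With the replicate block, 6 genes had an unadjusted p under 0.05 (all probe sets 3.56%) and no sign changed. Same-numbered arrays deviated together with correlations of 0.150, -0.215 and 0.112 for replicates 4, 5 and 6, so the numbers were not taken as pairs. No alternative with several probe sets per gene was run, since each gene had 1. Dim genes have compressed differences.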
